A study of Mus musculus with 8 samples.

Results

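The difference of acLDL effects between genotypes was the change of each gene with acLDL in IRAK4 knock-in (KI) arrays minus its change with acLDL in wild-type (WT) arrays. All 8 of the 8 arrays of the study entered it, since the contrast needs every group. The 4 groups of 2 arrays were KI with acLDL, KI untreated, WT with acLDL and WT untreated. KI mice carry IRAK4 with an inactive kinase, and all groups were labelled as female and 129/BL6. The arrays were labelled as macrophages grown from bone marrow for 5 days in medium conditioned by L929 cells, and the acLDL groups had received 100 ug/ml of acetylated low-density lipoprotein for 24 hours. The labels do not say whether the 2 arrays of a group came from separate mice or cultures, so every p-value measures only the spread between those arrays, which may be technical.

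IRAK4 is a kinase that passes the signal of Toll-like and interleukin-1 receptors, through the adaptor MyD88, to NF-kB and to cytokine genes. Acetylated low-density lipoprotein (acLDL) is a modified lipoprotein that scavenger receptors take up, and it is used to load macrophages with cholesterol. The contrast asks whether a gene's response to acLDL depended on the IRAK4 genotype. A positive difference means a more positive change with acLDL in KI arrays than in WT arrays, and a negative difference the reverse.

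The values were probe intensities from Illumina beadchips, and levels and differences are given on the log2 scale. The 8 arrays shared almost the same distribution of values, with medians of 23.7 to 23.8 intensity units and 11026 to 11033 of 24613 probes above the noise limit of 36.7 units, and their number limits the precision. After the filter on dim probes, 10187 items were tested, each a gene represented by its brightest probe or an unnamed probe. Replicate arrays correlated at 0.982 to 0.986, and 3 of the 8 arrays correlated best with the other array of their own group. No probe was annotated to Irak4, so the genotype labels were not checked.

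The cell type in the labels was checked against marker genes, and the arrays went against it. Sftpc (surfactant protein C of alveolar type II cells) averaged 15.19 ± 0.13 on the log2 scale, Scgb1a1 (club cell secretoglobin) 14.93 ± 0.09, Ager (an alveolar type I cell marker) 14.55 ± 0.05 and Cldn5 (an endothelial tight junction protein) 14.05 ± 0.15 (SD over 8 arrays each). Of 21 macrophage genes with a probe, 17 were above noise on all 8 arrays, Lyz2 and Adgre1 among them, while Itgam and Fcgr1 were above noise on none. The arrays are therefore called by their labels. Genotype and acLDL treatment rest on the same labels and were not checked, so KI, WT and acLDL below mean arrays labelled so. The median difference of acLDL effects was 0.05 over 14 alveolar type II genes, -0.06 over 6 alveolar type I genes and -0.09 over 18 endothelial genes, against -0.02 over all items. Skeletal muscle genes stood out on 1 array each of 2 groups: the summed intensity of 10 such genes was 19961.8 on KI untreated replicate 2 and 17184.2 on WT untreated replicate 1, against 251.4 to 774.8 on the other 6 arrays. In bulk RNA, fewer cells of a type and less RNA per cell cannot be told apart.

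Baiap2l1, the calprotectin gene S100a8, Col3a1, Tm7sf3 and an unnamed probe were the items whose acLDL effect differed between genotypes. These 5 items of 10187 (0.0491%) had an adjusted p under 0.05 in limma's moderated test with Benjamini-Hochberg adjustment over all items. In 4 of them (0.0393%) the effect was more positive in KI arrays, and in 1 (0.00982%) it was more negative. Of those 4, Tm7sf3 and the unnamed probe passed the filter only through the 2 KI acLDL arrays, where they were high. Their calls are therefore not independent of the filter. When 1 of those 2 arrays was left out, both items failed the filter and were not tested. At an unadjusted p under 0.05 there were 875 items (8.59%), of which 477 were more positive in KI (4.68%) and 398 more negative (3.91%). Among those 875 items, 225 had both acLDL arrays above both untreated arrays in KI and below them in WT, and 213 had the reverse pattern. Over all items the shares with these opposite patterns were 3.36% and 4.38%. The 875 items were selected by the p-value of the difference, which itself favours opposite and separated effects. Their counts are therefore no sign that opposite responses were frequent. The acLDL effect alone passed an adjusted p of 0.05 for 2 items in KI (0.0196%) and 18 items in WT (0.177%). When each of the 8 arrays was left out in turn, Baiap2l1 stayed past the threshold in 8 of 8 fits, S100a8, Tm7sf3 and ILMN_2696696 in 1 each and Col3a1 in 0.

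Baiap2l1 encodes an I-BAR domain adaptor (IRTKS) that binds membranes and links them to the actin cytoskeleton. Its log2 level was 8.20 and 8.05 in KI acLDL arrays, against 8.28 and 8.33 in KI untreated arrays. In WT arrays it was 10.22 and 10.27 with acLDL, against 7.73 and 7.93 untreated. The 2 WT acLDL arrays stood above the other 6 arrays, and the KI arrays showed no such increase. The acLDL effect was -0.18 in KI (limma adjusted p = 0.804) and 2.41 in WT, where the level rose 5.33-fold (limma adjusted p = 0.000338). The difference of the effects was -2.59 ± 0.16 (SE), with a 95% interval of -2.97 to -2.22 and a limma adjusted p of 0.00281. The other I-BAR genes did not follow it: Baiap2 had a difference of -0.14 and Mtss1 of -0.20, with limma adjusted p-values of 0.847 and 0.788.

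S100a8 encodes a subunit of calprotectin, the calcium- and zinc-binding protein that fills the cytosol of neutrophils. Its level was 11.39 and 11.63 in KI acLDL arrays, against 10.71 and 10.57 in KI untreated arrays. It was 9.55 and 9.46 in WT acLDL arrays, against 10.60 and 10.49 in WT untreated arrays. The untreated groups overlapped, both KI acLDL arrays lay above them and both WT acLDL arrays below them. The acLDL effect was 0.87 in KI (limma adjusted p = 0.148), and S100a8 fell with acLDL in WT by 1.04 (limma adjusted p = 0.03). The effects differed by 1.90 ± 0.17 (SE), with a limma adjusted p of 0.0174.

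Col3a1 encodes the chain of type III collagen, a fibrillar collagen of soft tissue. Its level was 8.53 and 8.55 in KI acLDL arrays, against 7.71 and 7.70 in KI untreated arrays, and it was 7.18 and 7.16 in WT acLDL arrays, against 7.93 and 7.72 in WT untreated arrays. As for S100a8, the KI acLDL arrays were the highest and the WT acLDL arrays the lowest. The effects of 0.83 in KI and -0.65 in WT did not pass alone (limma adjusted p = 0.0902 and 0.11), while their difference of 1.48 ± 0.15 (SE) did (limma adjusted p = 0.0276). A second Col3a1 probe was above noise on 1 array only and had a difference of 0.09.

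Tm7sf3, a gene for a membrane protein with several transmembrane segments, was above noise on the KI acLDL arrays only. Its level there was 7.52 and 7.47, against 5.18 and 4.99 in KI untreated, 4.97 and 5.17 in WT acLDL and 5.04 and 4.61 in WT untreated arrays. With acLDL it was at least 2.24-fold higher in KI than in untreated KI arrays, a bound that sets the dim arrays at the lowest signal above noise (limma adjusted p = 0.00234 for the KI effect). The difference of effects had a limma adjusted p of 0.0276. The other 2 Tm7sf3 probes were above noise on no array and had differences of 0.28 and -0.09.

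The unnamed probe, ILMN_2696696, showed the same pattern as Tm7sf3. Its level was 8.11 and 8.03 in KI acLDL arrays, against 6.19 and 6.12 in KI untreated, 5.87 and 5.63 in WT acLDL and 5.67 and 5.87 in WT untreated arrays. It was above noise in the KI acLDL group only, at least 3.32-fold higher than in KI untreated arrays (limma adjusted p = 0.00234 for the KI effect), and the difference of effects had a limma adjusted p of 0.0174.

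**Figure D1:**
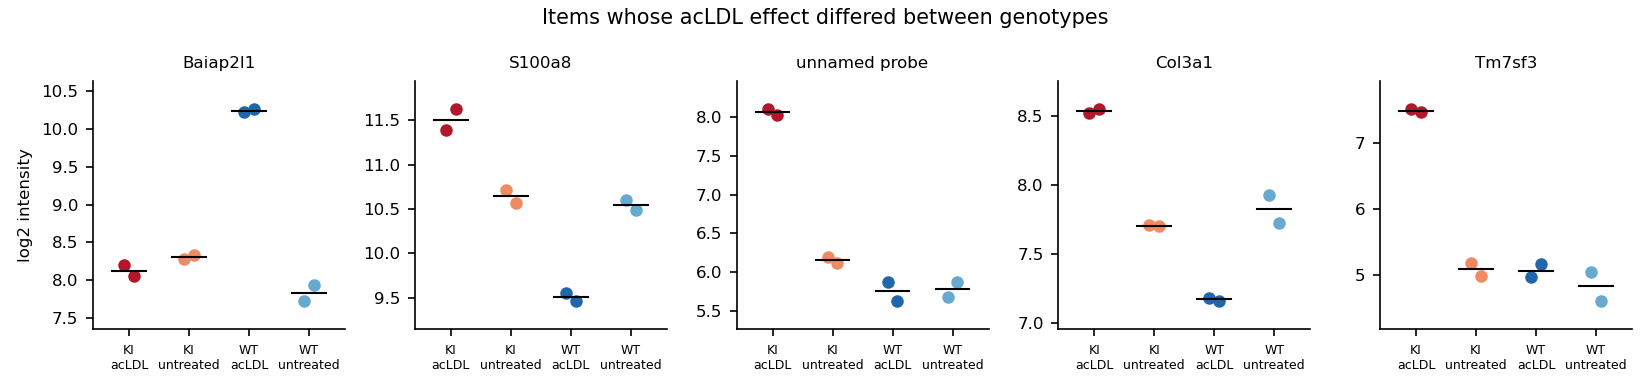
Log2 intensity (y axis, a separate scale in each panel) of the 5 items with an adjusted p under 0.05 for the difference of acLDL effects, by group (x axis). Points are single arrays and bars are means of 2 arrays. Baiap2l1 is high in WT acLDL arrays, and the other 4 items are highest in KI acLDL arrays.

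Heat shock chaperones and co-chaperones had larger acLDL effects in WT than in KI arrays. Chaperones of the HSP70, HSP90 and HSP110 families fold and refold proteins, and stress raises them together through the transcription factor HSF1, which binds heat shock elements in their promoters. Of 27 listed genes, 21 had a probe and 18 were tested. None passed an adjusted p of 0.05 for the difference of effects, while 9 had an unadjusted p under 0.05 with a more negative effect in KI, a direction in which 3.91% of all items lay. This list and those below were chosen with earlier results of these data known. Their counts beside all items are therefore descriptions and not tests. The median acLDL effect over the 18 genes was 0.35 in KI and 0.82 in WT, against -0.01 in KI and 0.01 in WT over all items. The difference was negative for 17 of the 18 genes, with a median of -0.56, against 5393 of 10187 items with a median of -0.02.

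The effect had the same sign in both genotypes for most of these genes: it was positive for 17 of 18 in KI and for 18 of 18 in WT. The acLDL effect in WT passed an adjusted p of 0.05 in limma for 5 of the 18 genes, Hsph1, Chordc1, Ahsa2, Bag3 and Dnajb1, against 0.177% of all items. The effect in KI passed for none of them, where only 0.0196% of all items passed. At baseline the KI untreated arrays were higher than the WT untreated arrays by a median of 0.58, whereas with acLDL the KI arrays differed from the WT arrays by a median of -0.10.

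Hsph1, which encodes the HSP110 chaperone that works as an exchange factor for HSP70, had the largest difference in the list. Its level was 12.22 and 12.16 in KI acLDL arrays, against 11.56 and 11.96 in KI untreated arrays, and 12.96 and 12.58 in WT acLDL arrays, against 10.44 and 10.32 in WT untreated arrays. WT untreated arrays were the lowest and WT acLDL arrays the highest, with the KI arrays of both treatments between them. It rose with acLDL by 2.39 in WT (limma adjusted p = 0.0039), against an effect of 0.43 in KI (limma adjusted p = 0.766). The difference of -1.96 ± 0.24 (SE) had a limma adjusted p of 0.0736.

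Chordc1, whose product is a co-chaperone of HSP90, was at 11.56 and 11.57 in KI acLDL arrays, against 11.15 and 11.40 in KI untreated arrays, and at 12.01 and 11.85 in WT acLDL arrays, against 10.47 and 10.48 in WT untreated arrays. Ahsa2, related to the HSP90 ATPase activator Aha1, was at 7.68 and 7.56 in KI acLDL arrays, against 7.15 and 7.22 in KI untreated arrays, and at 7.85 and 8.03 in WT acLDL arrays, against 6.55 and 6.50 in WT untreated arrays. Both genes had the order of groups seen for Hsph1, with no overlap between treatments in either genotype. They rose with acLDL in WT by 1.45 for Chordc1 and 1.41 for Ahsa2 (limma adjusted p = 0.00581 and 0.00553). The differences of effects, -1.16 for Chordc1 and -0.97 for Ahsa2, had limma adjusted p-values of 0.151 and 0.17.

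Dnajb1, the HSP40 partner of HSP70, was at 12.89 and 12.87 in KI acLDL arrays, against 11.57 and 12.62 in KI untreated arrays, and at 13.25 and 13.09 in WT acLDL arrays, against 11.11 and 10.99 in WT untreated arrays. The 2 KI untreated arrays lay apart, replicate 2 being close to the acLDL arrays. Without that array the difference of effects was -0.80, and without the other KI untreated array it was -1.86, against -1.33 with all arrays.

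The following members were named after their values were seen. Bag3, an HSP70 co-chaperone of selective autophagy, rose by 1.17 with acLDL in WT (limma adjusted p = 0.03), against an effect of 0.34 in KI. Stip1, which links HSP70 to HSP90, had effects of 0.42 in KI and 1.32 in WT, Hspb1, a small heat shock protein, 0.63 in KI and 1.60 in WT, and Hspd1, the mitochondrial chaperonin, 0.29 in KI and 0.84 in WT. Dnajb4, another HSP40 gene, was the 1 member with a positive difference, with effects of 0.93 in KI and 0.45 in WT, and its difference of 0.48 had a limma adjusted p of 0.72.

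**Figure D2:**
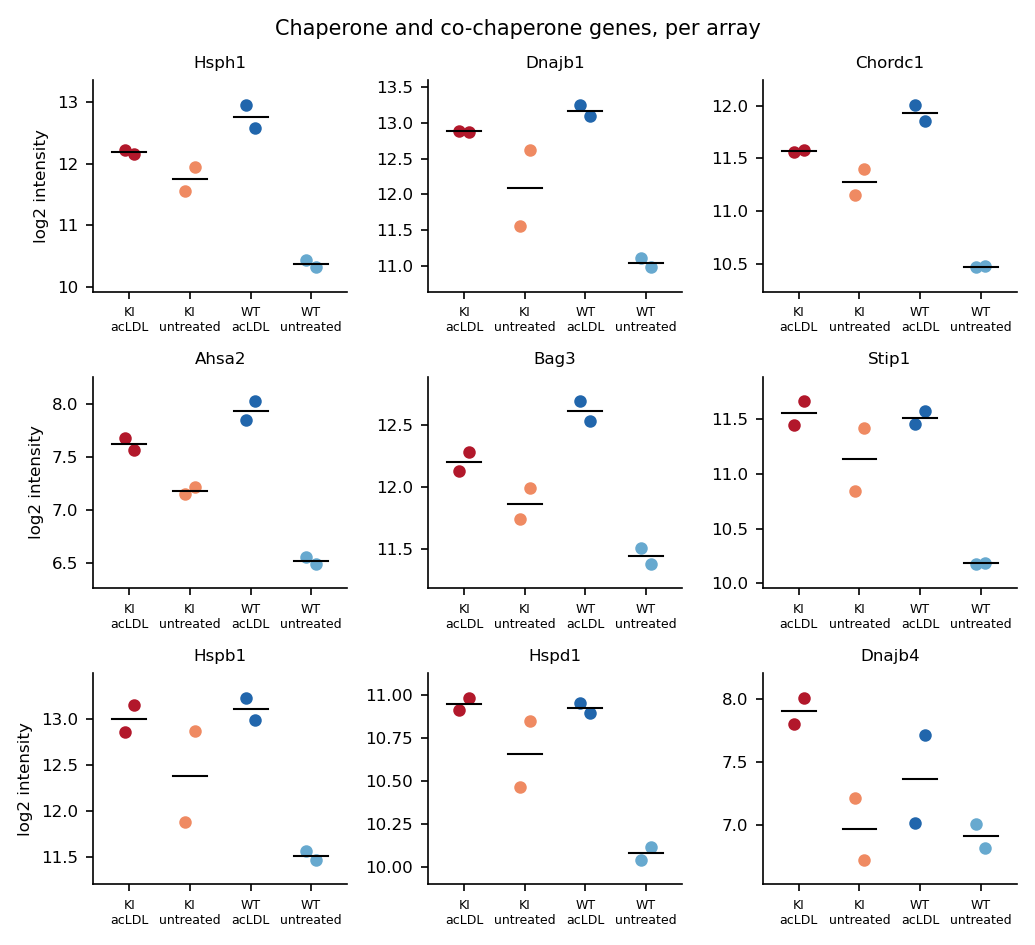
Log2 intensity (y axis, a separate scale in each panel) of 9 chaperone and co-chaperone genes by group (x axis); points are single arrays and bars are means of 2 arrays. In 8 of the 9 panels the WT untreated arrays are the lowest of all 8 arrays, and the KI untreated arrays lie above them.

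The promoters of the chaperone genes were searched for the heat shock element, written as GAA, TTC and GAA with 2 free bases between the blocks and read on both strands. In RefSeq windows of build GRCm38.p6, which run 250 bases before to 50 bases after a gene's start, 198 of 32851 windows (0.603%) held a match, and 179 of the 27025 genes with a window (0.662%) had one in at least 1 of their windows. Of the 17 tested chaperone genes with a window, 3 held one, Hsph1, Chordc1 and Hspd1. A match is a description of the letters and not of a bound site. The 30 bases around the matches are shown because 2 of these 3 genes, Hsph1 and Chordc1, had the smallest p-values in the list. Capitals mark the match or overlapping matches, and each sequence is given 5′ to 3′ on the strand of its gene. The Hsph1 site lies at chr5:149636287-149636316 on the minus strand, the Chordc1 site at chr9:18292259-18292288 on the plus strand and the Hspd1 site at chr1:55088053-55088082 on the minus strand.
Hsph1: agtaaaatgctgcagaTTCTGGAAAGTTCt
Chordc1: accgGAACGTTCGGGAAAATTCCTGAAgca
Hspd1: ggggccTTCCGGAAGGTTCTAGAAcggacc

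Neutrophil granule and calprotectin genes had a median acLDL effect of 0.45 in KI and -0.58 in WT over the 9 genes tested. In 3 of the 9 both acLDL arrays lay above both untreated arrays in KI and below them in WT, a pattern held by 3.36% of all items. Of 23 listed genes, 20 had a probe. The difference of effects was positive for 8 of the 9 genes, with a median of 0.83, which was 0.52 without WT acLDL replicate 2, 0.53 without KI acLDL replicate 2 and 0.35 over the 20 genes with a probe when dim probes were not filtered out. S100a8 was the 1 gene past an adjusted p of 0.05, and 3 genes had an unadjusted p under 0.05 with a more positive effect in KI, a direction that held 4.68% of all items. S100a9, the other calprotectin subunit, was at 10.41 and 10.68 in KI acLDL arrays, against 10.03 and 9.70 in KI untreated arrays. It was at 9.10 and 9.17 in WT acLDL arrays, against 9.65 and 9.77 in WT untreated arrays. The order of groups was that of S100a8, and the difference of 1.26 ± 0.21 (SE) had a limma adjusted p of 0.18. Wfdc21, the third of these genes, had effects of 0.49 in KI and -0.41 in WT.

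The 9 genes tested were above noise on all 8 arrays. Of the 20 listed genes with a probe, 10 were above noise on no array. These were Elane, Mpo, Prtn3, Ctsg, Ngp, Mmp8, Cxcr2, Itgb2l, Stfa2 and Il1r2. The summed intensity of the 9 genes tested was 6948.8 and 7722.1 in KI acLDL arrays, against 5242.5 and 5459.9 in KI untreated arrays. It was 4185.3 and 2817.6 in WT acLDL arrays, against 5934.7 and 6837 in WT untreated arrays. The part of neutrophil number in the S100a8 and S100a9 values was not tested.

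Macrophage identity genes, listed as cell type markers, had a median acLDL effect of 0.16 in KI and -0.24 in WT over 19 genes. The difference of effects was positive for 17 of 19, with a median of 0.39, which was 0.23 without KI untreated replicate 1, and 5 genes had an unadjusted p under 0.05, all with a more positive effect in KI, the direction of 4.68% of all items. No gene passed an adjusted p of 0.05. Tyrobp, the DAP12 adaptor of activating myeloid receptors, was at 7.95 and 8.29 in KI acLDL arrays, against 7.65 and 7.49 in KI untreated arrays, and at 7.33 and 7.03 in WT acLDL arrays, against 8.01 and 7.70 in WT untreated arrays. The treatments did not overlap in either genotype and moved in opposite directions, and the difference of 1.23 ± 0.24 (SE) had a limma adjusted p of 0.31. Ctss, the cathepsin that cleaves the invariant chain, had effects of 0.32 in KI and -0.76 in WT. Trem2, a lipid-sensing receptor that signals through Tyrobp, was above noise on 3 arrays only, and its level was 6.34 in KI acLDL, 5.98 in KI untreated, 5.94 in WT acLDL and 6.44 in WT untreated arrays on average. The summed intensity of the 19 genes was 44164.9 and 54757.3 in KI acLDL arrays, against 45312.5 and 49869.8 in KI untreated arrays, and it was 43882.5 and 37500.1 in WT acLDL arrays, against 47061.4 and 45471.2 in WT untreated arrays. The KI groups overlapped in this sum and the WT groups did not. The part of macrophage number in the myeloid and inflammatory values was not tested.

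Fcer1g, the Fc receptor gamma chain, was chosen after its values were seen because single arrays stood apart. It was at 9.84 and 5.44 in KI acLDL arrays, against 9.53 and 4.98 in KI untreated arrays, and between 4.99 and 5.35 in the 4 WT arrays. Replicate 1 of each KI group was high and every other array was below noise, so the gene gave no measure of the acLDL effect.

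Inflammatory cytokine and chemokine genes had a median effect of 0.04 in KI and -0.35 in WT over 20 genes tested of 33 with a probe, and 12 listed genes, Il6, Tnf, Ccl2 and Nos2 among them, were above noise on no array. The difference was positive for 14 of the 20 genes, with a median of 0.38, which was 0.22 without KI untreated replicate 2. None passed an adjusted p of 0.05, and 6 had an unadjusted p under 0.05, all with a more positive effect in KI, against 4.68% of all items. Ccl6, a CC chemokine of myeloid cells, was at 8.12 and 8.25 in KI acLDL arrays, against 7.27 and 7.87 in KI untreated arrays, and at 7.78 and 7.45 in WT acLDL arrays, against 8.17 and 8.33 in WT untreated arrays. The difference for Ccl6 was 1.25 ± 0.29 (SE), with a limma adjusted p of 0.396. Il1b, the interleukin-1 beta gene, had effects of 0.31 in KI and -0.36 in WT, and Cxcl13, a B cell chemokine, 0.20 in KI and -0.84 in WT. Il18, another cytokine of the interleukin-1 family and named after its values were seen, had effects of 0.54 in KI and -0.59 in WT.

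Interferon-stimulated genes encode antiviral proteins and GTPases that interferons switch on through interferon-stimulated response elements in their promoters. Of 37 listed genes, 31 had a probe and 20 were tested. The difference of effects was positive for 19 of the 20, with a median of 0.29, which was 0.14 without WT acLDL replicate 1, and the median effect was 0.14 in KI and -0.12 in WT. None passed an adjusted p of 0.05, and 6 had an unadjusted p under 0.05, all with a more positive effect in KI, as had 4.68% of all items. In 8 of the 20 genes each of the 4 pairwise acLDL minus untreated differences in KI lay above all 4 in WT, a pattern held by 10.8% of all items.

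Ifi47, an interferon-inducible GTPase, was at 8.31 and 8.60 in KI acLDL arrays, against 8.20 and 8.24 in KI untreated arrays. It was at 7.45 and 7.52 in WT acLDL arrays, against 8.36 and 8.45 in WT untreated arrays. The WT acLDL arrays stood below the other 6. Ifi47 fell with acLDL in WT by 0.92 (limma adjusted p = 0.0482), against an effect of 0.24 in KI, and the difference of 1.16 ± 0.18 (SE) had a limma adjusted p of 0.151. Irf7, the interferon regulatory factor that amplifies type I interferon, had effects of 0.27 in KI and -0.34 in WT. The following interferon-stimulated genes were named after their values were seen. Ifit3, an antiviral tetratricopeptide protein gene, had effects of 0.06 in KI and -0.53 in WT, and Bst2, which encodes the virus-tethering protein tetherin, 0.56 in KI and -0.37 in WT. Parp12, an interferon-inducible ADP-ribosyltransferase gene that was not on the list, was at 8.11 and 8.17 in KI acLDL arrays, against 7.29 and 7.19 in KI untreated arrays, and at 6.92 and 7.08 in WT acLDL arrays, against 7.19 and 7.37 in WT untreated arrays. Its KI acLDL arrays were the highest and its WT acLDL arrays the lowest, and the difference of 1.18 ± 0.16 (SE) had a limma adjusted p of 0.147.

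Rsad2 (viperin, an antiviral radical SAM enzyme) had the largest difference on the interferon list, and its values ran with those of some red cell genes, Slc4a1 among them. It was at 11.28 and 11.41 in KI acLDL arrays, against 9.65 and 9.22 in KI untreated arrays, and at 9.50 and 8.04 in WT acLDL arrays, against 8.49 and 8.72 in WT untreated arrays. Slc4a1, the band 3 anion exchanger of red cells, was at 11.51 and 11.53 in KI acLDL arrays, against 9.58 and 8.92 in KI untreated arrays, and at 9.63 and 7.79 in WT acLDL arrays, against 8.28 and 8.24 in WT untreated arrays. For both genes the KI acLDL arrays were the highest and WT acLDL replicate 1 lay well above replicate 2. The differences of effects were 1.75 ± 0.57 (SE) for Rsad2 and 1.82 ± 0.71 (SE) for Slc4a1, with limma adjusted p-values of 0.55 and 0.573. Without WT acLDL replicate 2 they were 1.02 for Rsad2 and 0.90 for Slc4a1.

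Alas2, the erythroid enzyme that starts heme synthesis and was named after its values were seen, followed the same order, with 13.37 and 13.44 in KI acLDL arrays, against 12.68 and 12.07 in KI untreated arrays, and 12.84 and 11.48 in WT acLDL arrays, against 11.56 and 11.91 in WT untreated arrays. Its difference was 0.61 with all arrays and -0.07 without WT acLDL replicate 2. Trim10, a tripartite motif gene of erythroid cells, exceeded the noise limit only with acLDL in KI, at 6.71 and 6.76, and was at least 1.32-fold higher there than in KI untreated arrays (limma adjusted p = 0.0902). Trim10 passed the filter only through those KI acLDL arrays, so this p-value is not independent of the filter. Car2, carbonic anhydrase 2, had effects of 0.69 in KI and -0.26 in WT, with a limma adjusted p of 0.408 for the difference. The median difference over the 7 red cell genes tested was 0.61, with 4 positive and 3 negative, and it was -0.07 without WT acLDL replicate 2. The differences of Hba-a1, Tfrc and Ank1 were -0.07, -0.06 and -0.07. The summed intensity of the 7 genes was 78516.3 and 77137.7 in KI acLDL arrays, against 68515.2 and 63642.7 in KI untreated arrays, and 69467.4 and 59524.4 in WT acLDL arrays, against 62418.7 and 62694.9 in WT untreated arrays, while Epb42, Car1 and Klf1 were above noise on none. The part of red cell content in the Rsad2 values was not tested.

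The interferon-stimulated response element, written as GAAA and GAAA with 2 free bases between them and read on both strands, was found in the promoter window of 9 of the 18 interferon-list genes with a window, against 3.99% of all genes with a window. The sites of 3 of the genes described above are shown as 30 bases from build GRCm38.p6, on the strand of the gene, with the match in capitals. They lie at chr12:26456553-26456582 on the minus strand for Rsad2, at chr19:34583363-34583392 on the plus strand for Ifit3 and at chr8:71537580-71537609 on the minus strand for Bst2. No match was found in the windows of Ifi47 and Irf7, which says only that these letters are not there.
Rsad2: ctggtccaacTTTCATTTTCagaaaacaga
Ifit3: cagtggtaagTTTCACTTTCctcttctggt
Bst2: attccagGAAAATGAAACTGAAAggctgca

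Circadian clock genes had mostly negative differences, whose size moved with single arrays. The clock is a loop in which BMAL1 (the product of Arntl) and CLOCK raise Per, Cry and Nr1d1 genes, whose products then repress them, and output factors such as Dbp cycle with it. Of 20 listed genes, 17 had a probe and 13 were tested. The difference was negative for 12 of 13, with a median of -0.77 and median effects of -0.25 in KI and 0.34 in WT. None passed an adjusted p of 0.05, and at an unadjusted p under 0.05 the effect was more negative in KI for 3 genes (3.91% of all items) and more positive for 1, Arntl (4.68% of all items). The median difference was -0.40 without KI acLDL replicate 2, -0.46 without WT untreated replicate 2 and -0.35 over the 17 genes with a probe when dim probes were kept.

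Cry2, a cryptochrome repressor, was at 8.79 and 8.45 in KI acLDL arrays, against 9.21 and 9.13 in KI untreated arrays, and at 9.59 and 9.59 in WT acLDL arrays, against 9.11 and 9.29 in WT untreated arrays. Its treatments were separate and opposite in the 2 genotypes, and the difference of -0.93 ± 0.19 (SE) had a limma adjusted p of 0.31. Nr1d1, the REV-ERB alpha repressor, was at 8.34 and 6.82 in KI acLDL arrays, against 9.38 and 8.89 in KI untreated arrays, and at 8.95 and 9.62 in WT acLDL arrays, against 8.24 and 9.17 in WT untreated arrays. Its 3 probes disagreed, with differences of -2.13, -1.45 and 0.04. Dbp, a PAR bZIP output factor named after its values were seen, was at 10.77 and 7.85 in KI acLDL arrays, against 11.35 and 11.38 in KI untreated arrays, and at 10.89 and 11.79 in WT acLDL arrays, against 11.16 and 11.08 in WT untreated arrays. KI acLDL replicate 2 stood apart for Dbp and Nr1d1, and without it the difference was -0.82 for Dbp, against -2.27 with all arrays, and -1.38 for Nr1d1. Arntl, also named after its values were seen, ran the other way, at 6.82 and 7.95 in KI acLDL arrays, against 6.52 and 6.29 in KI untreated arrays, with 6.25 and 5.87 in WT acLDL arrays, against 6.09 and 6.53 in WT untreated arrays. In the promoter windows of the 11 clock genes with one, the E-box CACGTG was found in 2, the D-box TTATGNAA in 2 and the ROR element NNAGGTCA in 4, with both strands read. Of all genes with a window, 8.09% held the E-box, 3.99% the D-box and 18% the ROR element.

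**Figure D3:**
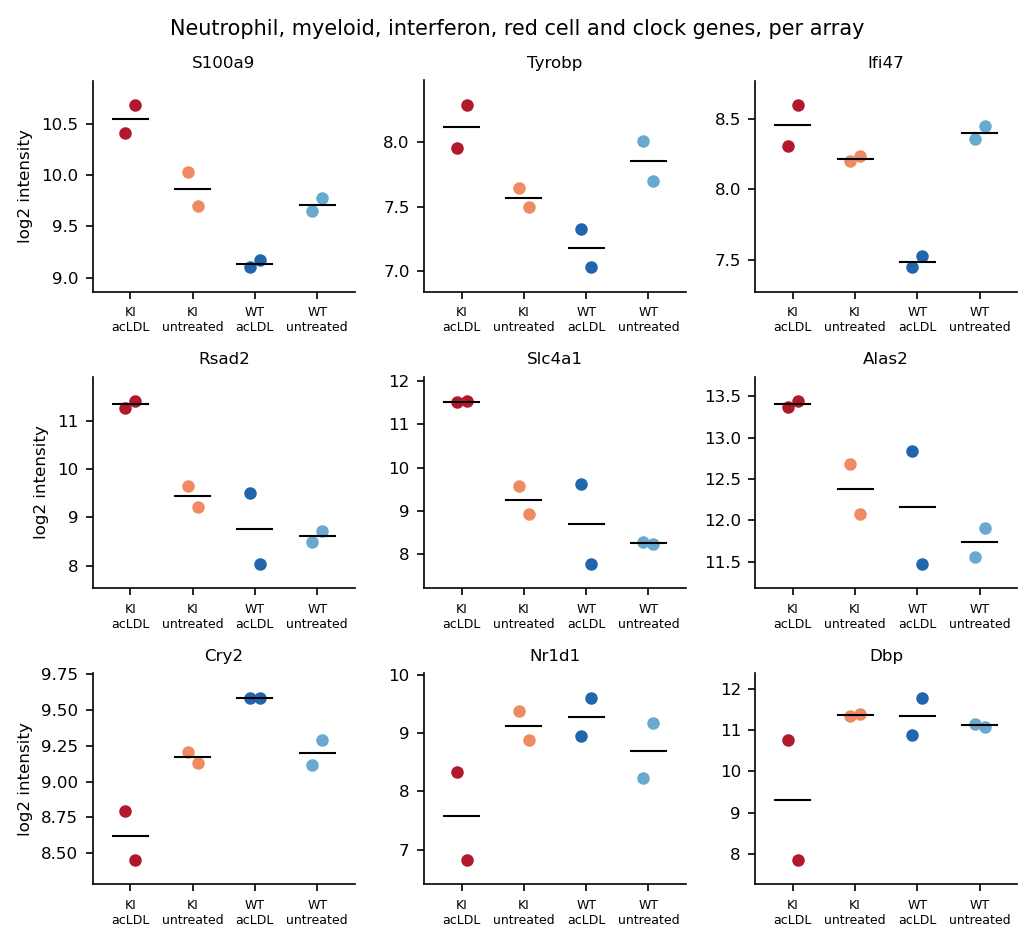
Log2 intensity (y axis, a separate scale in each panel) of 9 genes by group (x axis); points are single arrays and bars are means of 2 arrays. In S100a9, Tyrobp and Ifi47 the WT acLDL arrays are the lowest, Rsad2, Slc4a1 and Alas2 share the order of arrays in the WT acLDL group, and Nr1d1 and Dbp are lowest on KI acLDL replicate 2.

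Genes of fat cells and lipid storage had differences of effects whose size turned on single arrays, and none passed an adjusted p of 0.05. Dgat2, the last enzyme of triglyceride synthesis, was at 8.59 and 8.45 in KI acLDL arrays, against 9.31 and 9.84 in KI untreated arrays, and at 8.13 and 9.39 in WT acLDL arrays, against 7.88 and 7.99 in WT untreated arrays. Adipoq, the adiponectin gene of adipocytes, was at 8.02 and 8.68 in KI acLDL arrays, against 8.76 and 9.53 in KI untreated arrays, and at 6.72 and 8.79 in WT acLDL arrays, against 6.92 and 5.98 in WT untreated arrays. In both genes WT acLDL replicate 2 was far above replicate 1. The differences of effects were -1.88 for Dgat2 and -2.10 for Adipoq, with limma adjusted p-values of 0.467 and 0.578, and without WT acLDL replicate 2 they were -1.26 for Dgat2 and -1.07 for Adipoq.

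The median difference over the 7 adipocyte genes tested of 11 with a probe was -1.38, with 6 of 7 negative, and it lay between -2.53 and -0.26 as single arrays were left out. Lep was the 1 of these 7 genes with separate and opposite responses in the 2 genotypes, lower with acLDL in KI and higher in WT, as were 4.38% of all items. The summed intensity of those 7 genes was 1491.4 and 2464.5 in KI acLDL arrays, against 2619.6 and 5433.7 in KI untreated arrays, and 513.5 and 3913.9 in WT acLDL arrays, against 961.7 and 403.7 in WT untreated arrays. Retn, Plin1, Fabp4 and Pck1 were above noise on none. The part of fat in these values was not tested. Nnmt, a nicotinamide methyltransferase abundant in fat, had effects of -0.87 in KI and 0.68 in WT, and Lep, the leptin gene, was above noise on 2 arrays only, KI untreated replicate 2 and WT acLDL replicate 2. Cardiac muscle genes had a median difference of -0.78 over 9 genes, against 0.24 without WT acLDL replicate 2.

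None of the immediate early genes passed an adjusted p of 0.05 for the difference of effects. Immediate early genes are switched on within minutes of a signal by factors such as SRF and CREB that are already present. Their median effect was 0.14 in KI and 0.40 in WT over 22 genes tested, with a negative difference for 15 and a median difference of -0.25, which was -0.40 without KI untreated replicate 1. At an unadjusted p under 0.05 the difference was negative for 5 genes and positive for 1, against 3.91% and 4.68% of all items. Dusp8, a phosphatase of stress-activated kinases, was at 9.017 and 8.999 in KI acLDL arrays, against 8.744 and 8.970 in KI untreated arrays, and at 9.002 and 9.150 in WT acLDL arrays, against 8.143 and 8.097 in WT untreated arrays. Its WT untreated arrays were the lowest, it rose by 0.96 with acLDL in WT (limma adjusted p = 0.03), and the difference of -0.81 had a limma adjusted p of 0.31. Fosl2, an AP-1 subunit, had effects of -0.14 in KI and 0.66 in WT. Another Fosl2 probe, above noise on 3 arrays, had a difference of -0.005, and a further one, above noise on no array, 0.13. Crem, a cAMP-responsive modulator named after its values were seen, rose by 1.18 with acLDL in WT (limma adjusted p = 0.03), against an effect of 0.55 in KI.

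The unfolded protein response raises chaperones and degradation factors of the endoplasmic reticulum. Its 20 genes tested had a median effect of 0.07 in KI and 0.16 in WT and a median difference of -0.14, which was -0.02 without KI untreated replicate 2 and 0.01 over the genes above noise on all 8 arrays, and an unadjusted p under 0.05 was met by 4 with a negative and 1 with a positive difference (3.91% and 4.68% of all items). Herpud1, a component of endoplasmic reticulum degradation, was at 9.84 and 9.89 in KI acLDL arrays, against 9.81 and 10.09 in KI untreated arrays, and at 9.92 and 10.12 in WT acLDL arrays, against 9.35 and 9.19 in WT untreated arrays. As with the chaperones, the WT untreated arrays were the lowest. The difference for Herpud1 was -0.83 ± 0.19 (SE), with a limma adjusted p of 0.396, and Ddit3 (CHOP) had effects of 0.14 in KI and 0.73 in WT. Outside this list, P4ha1, a prolyl hydroxylase of collagen on the matrix and HIF target lists, rose by 1.55 with acLDL in WT (limma adjusted p = 0.03), against an effect of 0.67 in KI.

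None of the genes of the receptor pathway in which IRAK4 acts passed an adjusted p of 0.05. Toll-like and interleukin-1 receptor signalling genes had a median difference of 0.14 over 23 genes tested, with 16 positive, and 3 had an unadjusted p under 0.05, all more positive in KI (4.68% of all items). The median was 0.05 without KI untreated replicate 1 and 0.05 without WT acLDL replicate 2. Tlr2, the receptor for bacterial lipoproteins, was at 8.71 and 9.01 in KI acLDL arrays, against 8.70 and 8.80 in KI untreated arrays, and at 8.59 and 8.62 in WT acLDL arrays, against 9.35 and 9.14 in WT untreated arrays. The KI groups overlapped, the WT acLDL arrays lay below the WT untreated arrays, and the difference of 0.75 ± 0.19 (SE) had a limma adjusted p of 0.414. Ly96 (MD-2, the partner of TLR4) had effects of -0.05 in KI and -0.69 in WT. NF-kB components had a median difference of 0.04 over 16 genes. Nfkbiz, an inducible nuclear inhibitor of the IkB family, had effects of 0.60 in KI and 0.04 in WT, and Relb, a subunit of the alternative NF-kB pathway, -0.14 in KI and 0.29 in WT.

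None of the genes that handle acLDL and cholesterol passed an adjusted p of 0.05. Cholesterol synthesis and uptake genes had a median difference of 0.02 over 18 genes. At an unadjusted p under 0.05 there was 1, Idi1, more negative in KI (3.91% of all items). Idi1 passed the filter only through the 2 WT acLDL arrays, where it was high, so its p-value is not independent of the filter. Scavenger receptor and lipid droplet genes had a median of -0.04 over 25 genes, with 1 at an unadjusted p under 0.05, also more negative in KI (3.91% of all items). Msr1, Cd36, Olr1 and Fabp4 were above noise on no array. LXR targets and cholesterol export genes had a median of 0.25 over 11 genes, with effects of 0.05 in KI and -0.20 in WT, and 2 had an unadjusted p under 0.05, both more positive in KI (4.68% of all items). Their median was 0.10 without WT untreated replicate 1 and 0.43 without WT untreated replicate 2. The genes with a p under 0.05 were Lpcat3, a phospholipid-remodelling acyltransferase, with effects of 0.26 in KI and -0.25 in WT, and Npc2, the lysosomal cholesterol carrier, with 0.13 in KI and -0.25 in WT. Hmgcs1, an early enzyme of cholesterol synthesis, was at 12.70 and 12.61 in KI acLDL arrays, against 12.87 and 12.82 in KI untreated arrays, and at 12.78 and 12.84 in WT acLDL arrays, against 12.73 and 12.85 in WT untreated arrays. Its difference of -0.21, with a limma adjusted p of 0.71, was close to the 0.17 that was the median size of the difference over all items.

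**Figure D4:**
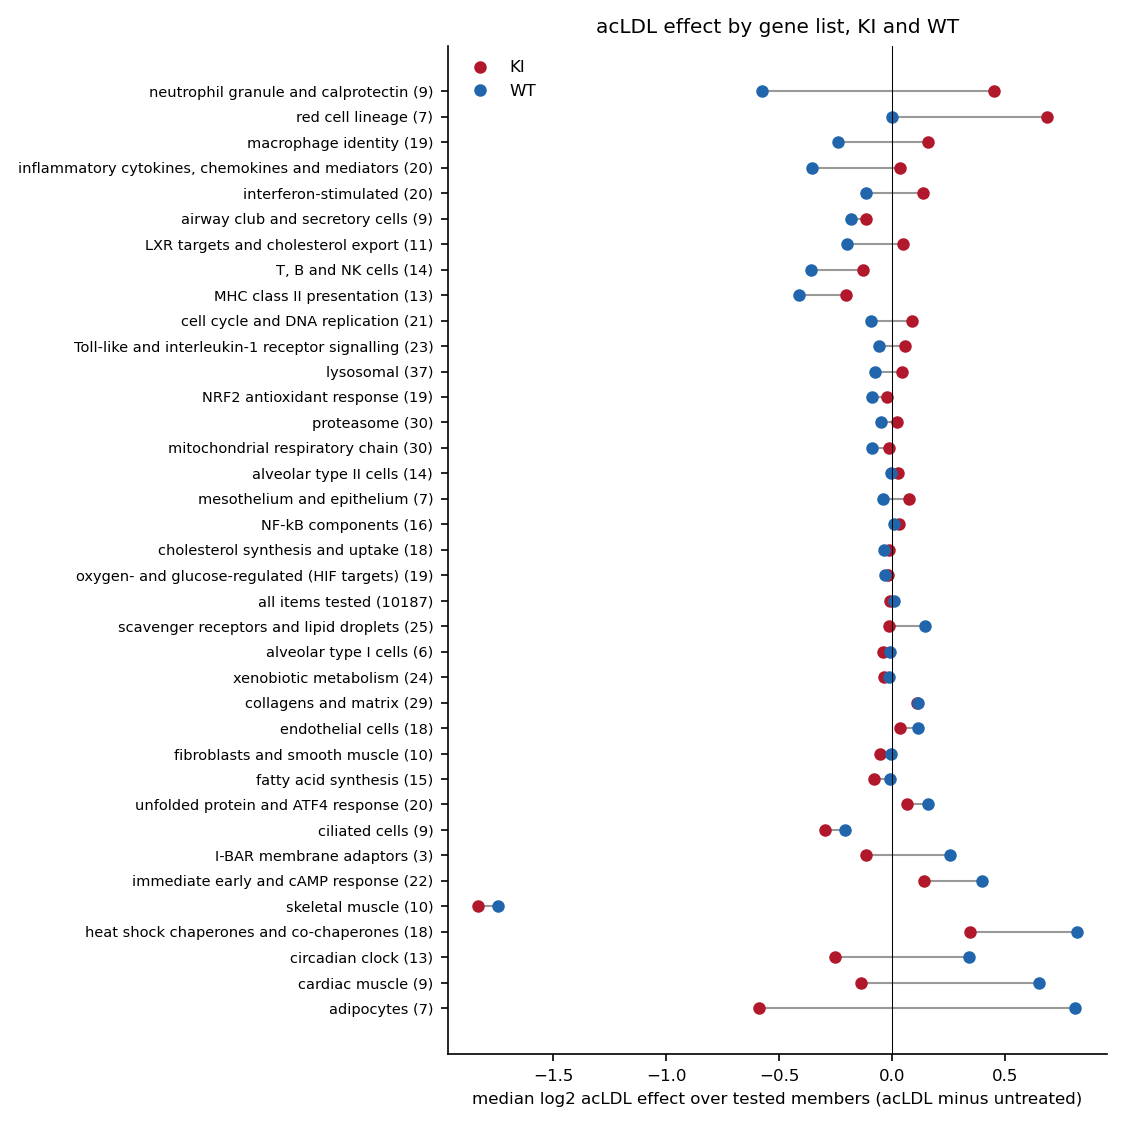
Median log2 acLDL effect (x axis) in KI and WT arrays over the tested members of each gene list (y axis, number of members in brackets), ordered by the median difference of effects. The 2 points of a list are its KI and WT medians, joined by a line; the widest gaps are those of the adipocyte, neutrophil and cardiac muscle lists, and the lists near all items have both points near 0.

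Among the remaining lists, lysosomal genes had a median difference of 0.11 over 37 genes, with 26 positive, where 47.1% of all items were, and 5 at an unadjusted p under 0.05, all more positive in KI (4.68% of all items). Ctsk, a collagen-cleaving cathepsin, had effects of 0.26 in KI and -0.66 in WT, and Ctsb, cathepsin B, 0.11 in KI and -0.28 in WT. Another Ctsb probe, above noise on all 8 arrays, had effects of 0.08 in KI and -0.07 in WT. MHC class II presentation genes had a median difference of 0.22 over 13 genes, with 10 positive and 4 at an unadjusted p under 0.05, all more positive in KI (4.68% of all items). That median was 0.085 without KI acLDL replicate 1 and 0.40 without KI acLDL replicate 2. Cd83, a marker of mature antigen-presenting cells, had effects of 0.33 in KI and -0.47 in WT. T, B and NK cell genes had a median difference of 0.24 over 14 genes, with median effects of -0.13 in KI and -0.36 in WT, and Cd3e, a chain of the T cell receptor complex, had effects of 0.02 in KI and -0.68 in WT. The T, B and NK median was 0.14 without WT acLDL replicate 1, and 0.08 over 20 genes, 10 positive and 10 negative, with no filter on dim probes. The median difference was 0.14 for cell cycle genes (0.03 to 0.35 as single arrays were left out), 0.09 for NRF2 targets (0.06 to 0.14) and 0.08 for proteasome genes (0 to 0.15). For respiratory chain genes it was 0.07, for HIF targets -0.02 and for collagens and matrix genes -0.08, and each of these changed sign with single arrays left out, with ranges of -0.05 to 0.17, -0.142 to 0.105 and -0.13 to 0.05.

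**Figure D5:**
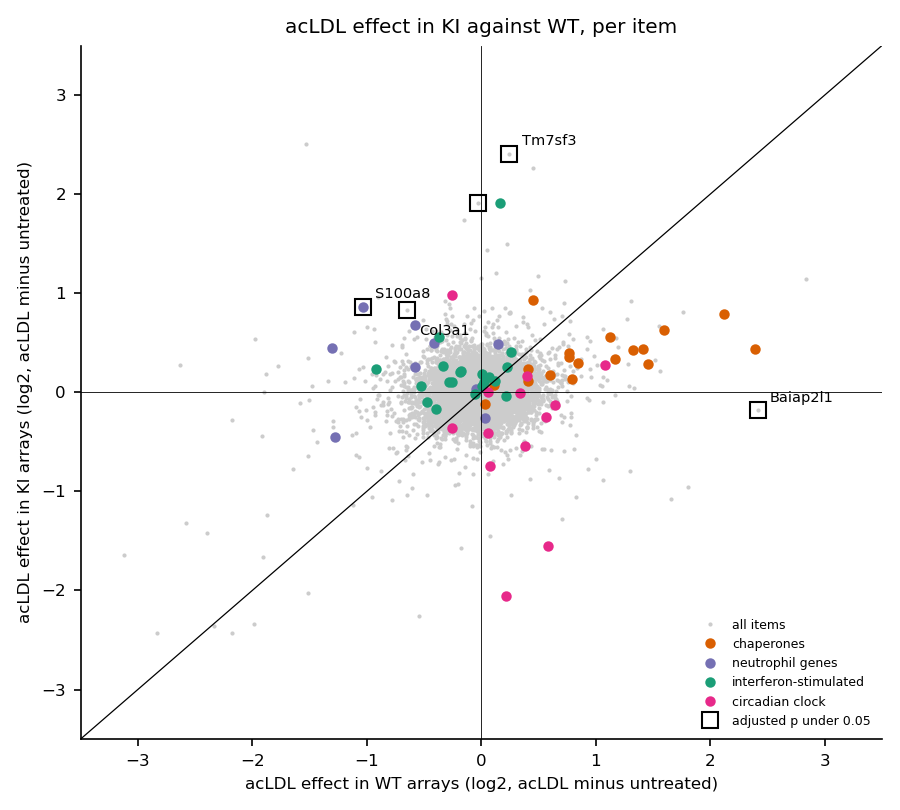
The acLDL effect (log2, acLDL minus untreated) in KI arrays (y axis) against that in WT arrays (x axis) for all 10187 items in grey, with 4 gene lists coloured and the 5 items past an adjusted p of 0.05 boxed. The diagonal marks equal effects and 3 items lie outside the axes; most chaperones lie right of the diagonal, and most neutrophil and interferon-stimulated genes lie above it.

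Other genes named by the size or the separation of their differences, among those with an unadjusted p under 0.05 and separate pairwise effects, lay outside the lists above. Errfi1, a feedback inhibitor of the EGF receptor, had effects of 0.21 in KI and 1.56 in WT. Glycam1, a mucin-like ligand of L-selectin in lymph node vessels, was above noise in WT untreated arrays only, at 8.07 and 6.84, and was at least 2.17-fold lower with acLDL in WT (limma adjusted p = 0.142). Glycam1 passed the filter only through those WT untreated arrays, so this p-value is not independent of the filter. Cdkal1, a tRNA-modifying enzyme gene, was at 7.88 and 7.77 in KI acLDL arrays, against 6.71 and 7.02 in KI untreated arrays, and at 7.42 and 6.25 in WT acLDL arrays, against 7.72 and 7.76 in WT untreated arrays. Its difference was 1.87 with a limma adjusted p of 0.411, and it ranged from 1.28 to 2.45 as single arrays were left out. A second Cdkal1 probe was above noise on no array and had a difference of 0.50. Usp25, a deubiquitinase gene above noise on 2 arrays only, was at 6.82 and 5.99 in KI acLDL arrays, against 5.98 and 5.62 in KI untreated arrays, and at 4.64 and 5.59 in WT acLDL arrays, against 6.60 and 5.86 in WT untreated arrays. Its fitted difference was 1.72, with a limma adjusted p of 0.55. Mmp12, the macrophage metalloelastase, had effects of 0.06 in KI and -1.48 in WT, and Lonp2, a peroxisomal protease, 0.51 in KI and -0.93 in WT. Mpp3, a membrane-associated scaffold, had effects of 0.05 in KI and 1.34 in WT, and Sspn, the sarcospan of the dystrophin complex, -1.03 in KI and 0.26 in WT. Another Mpp3 probe, above noise on 2 arrays, had a difference of -0.59, and a further one, above noise on no array, 0.235. Pdk4, the kinase that shuts down pyruvate dehydrogenase, had effects of -0.09 in KI and 1.06 in WT. Ugt1a6a, a glucuronosyltransferase gene, had effects of -0.50 in KI and 0.37 in WT. Creb3l4, a transcription factor of the CREB3 family, and Dennd6a, a DENN domain gene, were above noise on 2 arrays each, with fitted differences of 1.29 and -0.79. For Creb3l4 these were the 2 WT untreated arrays, so its difference is not independent of the filter. None of these 12 genes passed an adjusted p of 0.05 with all arrays.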

How the data were processed

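The authors measured RNA of the 8 samples on Illumina beadchips, and per the submitters' processing notes the values were made with BeadStudio; the version and settings used are not stated there. The deposited values are intensity on a linear scale. That they were background-subtracted and brought to a shared distribution was read from the values themselves, of which 29.2% were below 0 and whose column medians were 23.7 to 23.8. A second deposited table was not used, since its 16 columns of per-sample values carry names that match no sample's labels.

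Intensities were background corrected with normexp (offset 16) and put on the log2 scale, with no further normalization. Noise was taken from the values below 0, as their root mean square (12.2 units), and probes above 3 times this (36.7 units) on at least 2 of 8 arrays were kept, 11819 of 24613. Of all probes, 20984 had 1 gene symbol in the platform annotation, 1 had several and 3628 had none. The labels name version 2 of the mouseRef-8 beadchip, and the annotation used here may be that of another version, so every gene name holds as far as that annotation fits the arrays. The brightest probe stood for a gene, which left 10187 items, 8757 of them named. limma 3.58.1 (R 4.3.3) fitted 4 group means to all 8 arrays (4 residual and 3.86 prior degrees of freedom), and p-values were adjusted by Benjamini-Hochberg over all items, with a threshold of 0.05. The noise limit stands for the level well above background, since no detection values were used.

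The 36 gene lists (23 pathways, 13 cell types) and the members described were chosen with earlier results of these data known. Genes named were every item past the threshold, the 12 largest separated differences in each direction, the 6 clearest opposite responses in each direction, the 3 smallest p-values in each list, and further genes said to be named after their values were seen. Intervals are 95% and two-sided. Promoter windows came from RefSeq (GRCm38.p6), and the plots were made with matplotlib 3.10.9. The alternatives were another offset, no background correction, median centring, cyclic loess, other filters, every probe on its own, trended and robust variance, a replicate block and leaving out each array. The procedure was tested on simulated data.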

Additional observations from a re-analysis of the deposited data

Results flagged for a closer look

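The 5 items past the threshold are those whose acLDL effects differed between the genotypes by the test of the difference itself. The log2 difference of effects, KI minus WT, was -2.59 for Baiap2l1, 1.90 for S100a8, 1.94 for the unnamed probe ILMN_2696696, 1.48 for Col3a1 and 2.17 for Tm7sf3. For Tm7sf3 and ILMN_2696696, which were above noise in KI acLDL arrays only, these fitted values depend on the background correction and are no bounds. Baiap2l1 passed an adjusted p of 0.05 in limma under all 19 alternatives run, S100a8 under 10 of 19, Col3a1 under 8 of 19, ILMN_2696696 under 9 of the 16 that kept it and Tm7sf3 under 8 of the 16 that kept it.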

How the results depend on the processing

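The count of items past an adjusted p of 0.05 for the difference of effects was 5, and 2 without background correction, 3 without the filter on dim probes and 1 with the replicate block. It ranged from 1 to 4 as single arrays were left out, and was 4 to 6 under the other alternatives. Baiap2l1 was among the called items in each. Each array matters here: the count was 1 without WT untreated replicate 1, WT acLDL replicate 2, either KI untreated array or KI acLDL replicate 2, and 3 without WT untreated replicate 2 or KI acLDL replicate 1. The 4 called without WT acLDL replicate 1 shared 2 with the 5 called with all arrays. Hsph1 was called under 4 alternatives: an offset of 50, the filter on all 8 arrays, and trended or robust variance. The cause of these shifts was not tested, except that leaving out an array leaves fewer samples.

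Replicate numbers were not taken to pair the arrays, since only 3 of 6 correlations of same-numbered deviations from the group means were over 0.1. They were 0.188, 0.288 and 0.197 among KI acLDL, KI untreated and WT acLDL, and -0.06, -0.313 and -0.162 with WT untreated; Fcer1g was high on replicate 1 of both KI groups. The replicate block left 1 call. A block in which the WT untreated numbers run the other way was not tested.

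Over 145 named genes and 19 alternatives, 11 differences changed sign, all of them on leaving out an array. Over the arrays left out, the difference ranged from -0.30 to 0.01 for Baiap2, -1.37 to 0.009 for Myh11, -2.15 to 0.63 for Mb, -0.98 to 0.55 for Myl1, -2.43 to 0.03 for Myl7, -2.35 to 0.28 for Myl4, -1.68 to 0.24 for Tnni3, -4.35 to 0.46 for Ucp1, -0.071 to 1.29 for Alas2 and -1.58 to 2.90 for Fcer1g. The sign turned without WT untreated replicate 2 for Myl1 and Mb, without WT acLDL replicate 1 for Baiap2, without KI untreated replicate 2 for Fcer1g, and without WT acLDL replicate 2 for Mb (0.61) and the others. A slide block was not run, since no source names the slides.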
